A study of Homo sapiens with 12 samples.

Results

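The untreated state of MCF-12A cells was measured in 6 control RNA-seq libraries, 3 from each of the 2 sets of a study of TGFbeta1. They make up 6 of the 12 libraries, and the other 6 came from cells given TGFbeta1. Controls 1 to 3 were deposited in the first table and controls 4 to 6 in the second, and the members here are the libraries whose labels give the agent as control. Both groups carry the same labels: the epithelial breast line MCF-12A, untreated with TGFbeta1, with vehicle named as the comparison in the design text. The labels name no genetic change, dose, culture time, density, medium or passage. They also do not say whether the 3 libraries of a set were grown apart, and every p-value here rests on the spread between libraries of a set, which may be technical. The set coincides with whatever else differed between the deposits, including culture, library preparation, sequencing and processing, and these cannot be told apart.

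MCF-12A is a line of non-tumorigenic, immortalised human mammary epithelial cells. The mammary gland has an inner luminal layer, marked by keratins 8 and 18, and an outer basal layer, marked by keratins 5 and 14 and the transcription factor p63. Cultured mammary lines of this kind usually carry basal features and can also turn on genes of stratified epithelium, such as those of the cornified envelope of skin. Their inflammatory, matrix and cell division genes are known to respond to density, growth factors and serum, so the untreated state sets the level from which a treatment is read.

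The values are FPKM, fragments scaled by transcript length and library size, summed per gene over the transcripts listed in both tables under the same identifier and rescaled so that each library has the same sum. The shared transcripts numbered 23335 and belonged to 10496 genes, and they held 87.1 to 87.4% of the deposited FPKM in the first-set controls and 83.9 to 84.2% in the second. The depth of each library is unknown, since the tables hold no read counts, and no counting interval can be attached. In the first set 8918 to 8939 genes reached 1 FPKM, against 9456 to 9484 in the second. Over genes, the Pearson correlation of log2 values ran from 0.954 to 0.958 within the first set, from 0.965 to 0.969 within the second and from 0.863 to 0.870 between sets. The genes are not independent replicates, and the libraries of a set share their table. Single libraries of the first set stood apart at some genes, with 256 genes spanning more than 2 log2 units among its controls and 130 among those of the second set.

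Of the 9482 genes with a mean of at least 1 FPKM, 4161 differed between the control groups at an adjusted p under 0.05 by limma. That is 43.9% of the genes tested. The second-set controls were higher at 1710 genes, or 18.0%, and lower at 2451, or 25.8%, and the median difference over all tested genes was -0.06 on the log2(FPKM + 1) scale. Every difference below is on that scale, second set minus first, and understates the change of genes of low level. The 3 values of one set lay wholly above or below those of the other at 5523 of the 9482 genes tested, or 58.2%, and at 4158 of the 4161 called. Calls higher in the second set were 41.1% of all calls, and without rescaling they were 49.0%. With calls this common, the count for a gene group is read against 18.0% higher and 25.8% lower. These shares move with level: at a mean of at least 5 FPKM, 1067 of 6545 genes were higher and 2023 lower. The gene lists were chosen with earlier results of these data known, so a count away from the shares may follow in part from that choice.

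The direction of the differences moved with gene structure. Among the 143 genes whose leading transcript has 1 exon, 33.6% were higher in the second set and 10.5% lower, with a median difference of 0.98. Among the 1164 genes with over 20 exons, 9.0% were higher and 37.8% lower, with a median of -0.29. At 74 of the 143 single-exon genes at least 1 first-set control was listed at 0, and at none of them was a second-set control. The part of this difference in any single gene was not tested. For each gene group the median after subtracting the median of each gene's exon class is therefore given where it bears on the group.

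**Figure D1:**
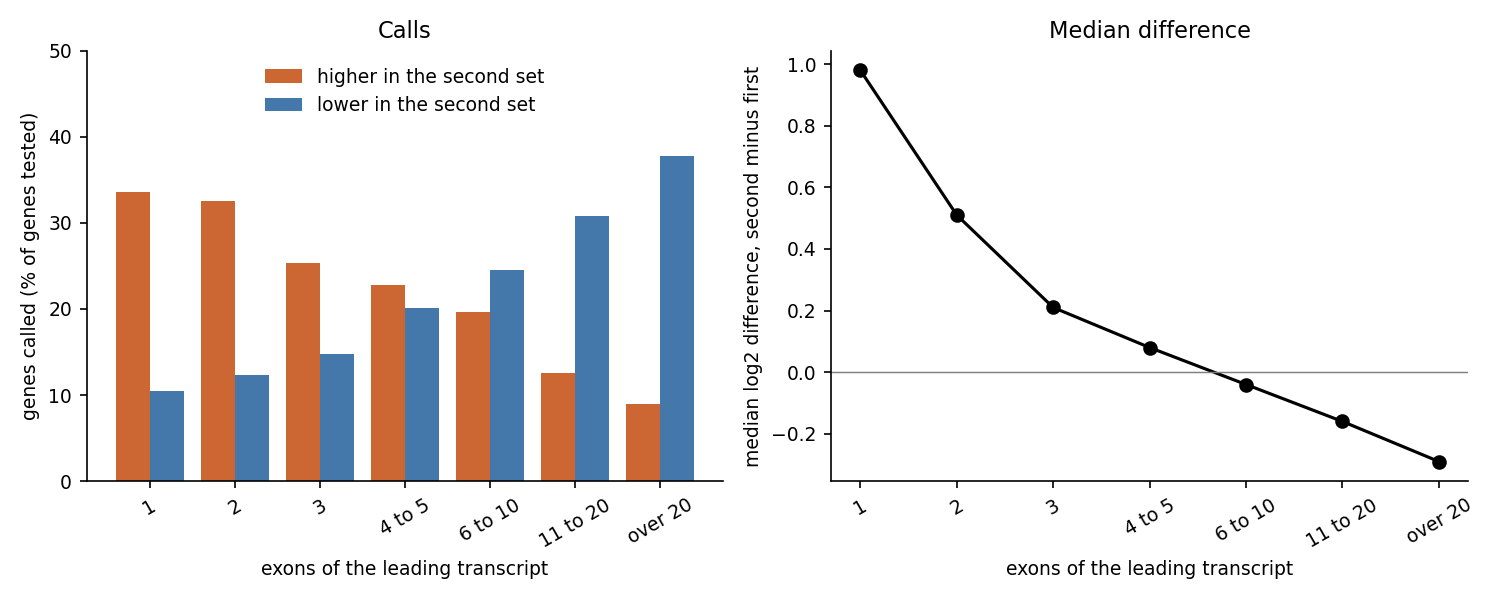
Genes called higher or lower in the second-set controls as a percentage of the genes tested (left) and the median log2 difference (right), by the number of exons of the leading transcript. The median falls from 0.98 for 1 exon to -0.29 for over 20.

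Untreated cells of both sets expressed the keratins of basal and luminal mammary cells, at different levels. KRT5, the basal type II keratin, was at 1386, 1360 and 1473 FPKM in controls 1 to 3 and at 437, 424 and 468 in controls 4 to 6. The groups did not overlap, and the second set was lower by a log2 difference of -1.66 (SE 0.06, adjusted p = 4.5e-05). KRT14, its usual partner, was at 856, 500 and 876 FPKM in the first set and 837, 787 and 906 in the second. These overlapped, and the difference of 0.22 (SE 0.23) was not called (adjusted p = 0.46), with -0.04 when control 2 was left out. KRT6A, a keratin of activated and stratified epithelium, differed by -0.58, with 1210 to 1282 FPKM in the first set and 811 to 869 in the second. TP63, which encodes p63, was at 19.9 to 24.4 FPKM against 12.3 to 14.3, a difference of -0.73 (adjusted p = 0.0039). EGFR, the EGF receptor and also a basal marker, went the other way, from 28.2 to 34.0 FPKM up to 54.2 to 64.2, a difference of 0.89. Over the 20 basal markers tested, 3 were higher and 10 lower in the second set, with a median of -0.41, or -0.22 after the exon class medians were subtracted. One of the 3 that were higher, ITGB4, an integrin subunit of hemidesmosomes, fell on the other side with a difference of -0.99 when all listed transcripts were summed.

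Luminal genes did not move as one. KRT7, a simple epithelial keratin, was at 1356 to 1401 FPKM in the first set and 491 to 541 in the second (difference -1.41). KRT18 was at 243, 263 and 304 FPKM and then 123, 120 and 115, a difference of -1.16 (adjusted p = 0.00044). KRT8, which pairs with keratin 18, was instead higher, at 66.8, 60.2 and 94.1 FPKM against 97.3, 133 and 118, a difference of 0.66 with an adjusted p of 0.04. That call was lost when control 1, 2, 5 or 6 was left out (differences of 0.53 to 0.65, adjusted p of 0.1 to 0.12). MUC1, the mucin of the luminal cell surface, was at 31.8 to 39.3 FPKM against 8.39 to 11.1 (difference -1.83). Of 10 luminal markers tested, 2 were higher and 5 lower (median -0.52), and 1 to 3 were higher when 1 control was left out. One of the 2 that were higher was XBP1, a secretory pathway factor, whose difference of 2.57 became -0.04 with all listed transcripts. GATA3, a luminal transcription factor, was low in every control, at 1.72 to 3.49 FPKM.

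Adhesion genes of epithelium were mostly lower in the second set. Of 29 junction genes tested, 17 were lower and 3 higher (median -0.65, or -0.44 after subtraction of exon class medians). JUP, plakoglobin of desmosomes and adherens junctions, was at 181, 183 and 203 FPKM in the first set and 83.9, 84.9 and 86.7 in the second, with no overlap and a difference of -1.14. The desmosomal plakophilin PKP1 was at 88.3 to 92.4 FPKM against 47.7 to 48.5, and the tight junction claudin CLDN7 at 101 to 121 against 46.5 to 50.9. CDH1, E-cadherin, varied among the libraries of each set, at 23.7, 37.3 and 39.8 FPKM and then 4.98, 11.4 and 18.6, and its difference of -1.58 (SE 0.46) had an adjusted p of 0.036. The call was lost when control 2, 3 or 5 was left out (differences of -1.48, -1.44 and -1.64, adjusted p of 0.095, 0.1 and 0.082). EPCAM, an adhesion molecule of most epithelia, was at 66.5 to 74.7 FPKM in the first set and 66.7 to 69.0 in the second, and its difference of -0.08 (SE 0.07) was not called (adjusted p = 0.4). CLDN4 was at 28.4 to 36.9 FPKM against under 0.011, but only 0.6% of its FPKM in the second table lay in shared transcripts. Among 14 epithelial transcription factors, 7 were lower and 1 higher. ELF3, an ETS factor of epithelial cells, was lower (difference -1.01), at 34.2 to 44.5 FPKM against 17.1 to 19.2.

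Genes of stratified epithelial differentiation were mostly lower in the second set. Of 28 tested, 18 were lower and 3 higher, with a median of -0.99 and of -1.08 after subtraction of exon class medians. KRT13, a keratin of mucosal stratified epithelium, was at 200, 194 and 278 FPKM in the first set and 23.9, 11.5 and 14.3 in the second, 13.5-fold between the means (difference -3.72, SE 0.29). Its partner KRT4 was at 19.9 to 24.4 FPKM against 1.04 to 1.10. A2ML1, a protease inhibitor of the upper epidermis, was at 86.7 to 97.3 FPKM against 6.56 to 8.60. In all 3 genes the groups lay far apart relative to the spread within a set. SPRR1B, a small proline-rich precursor of the cornified envelope, was at 178 to 193 FPKM against 31.6 to 35.7 (difference -2.39). PI3, the elastase inhibitor elafin, was at 45.8 to 52.2 FPKM against 5.73 to 7.34 (difference -2.74). CSTA, cystatin A, KRT16 and S100A9, a subunit of calprotectin, differed less, by -1.29, -0.98 and -1.05. The other subunit of calprotectin, S100A8, and the envelope protein involucrin (IVL) were higher, by 0.60 and 1.79. Those 2 genes were picked after their values were seen, and IVL was low in both sets, at 1.0 to 1.45 and 5.70 to 7.82 FPKM.

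**Figure D2:**
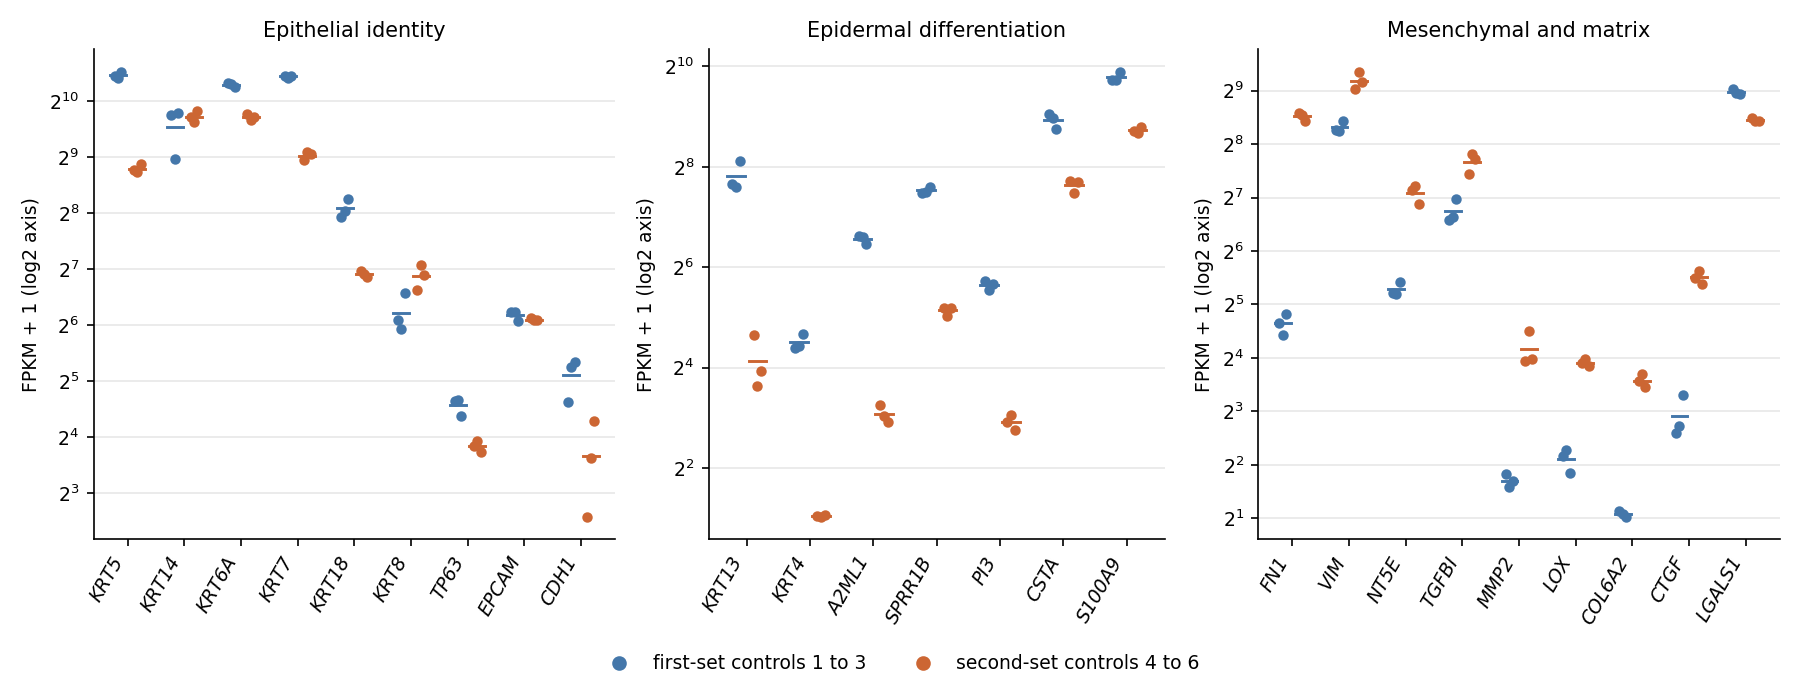
FPKM + 1 on a log2 axis for epithelial, differentiation and mesenchymal or matrix genes in each control library, with a bar at the group mean on that scale. KRT14 and EPCAM overlap between sets, KRT13 and A2ML1 lie lower in the second set and FN1 lies higher.

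Matrix and mesenchymal genes were more often higher in the second set. FN1, fibronectin, was at 24.2, 20.6 and 27.5 FPKM in controls 1 to 3 and at 383, 374 and 344 in controls 4 to 6. The means differed 15.3-fold with no overlap (difference 3.88, SE 0.12, adjusted p = 2.9e-05). VIM, vimentin, the intermediate filament of mesenchymal and many cultured cells, was at 308, 301 and 346 FPKM and then 523, 655 and 570, a difference of 0.87. NT5E, the ecto-enzyme CD73, was at 35.5 to 42.0 FPKM against 116 to 149, and MMP2, a gelatinase, at 2.01 to 2.54 against 14.3 to 21.7. Among 14 mesenchymal markers, 8 were higher and 1 lower (median 0.78). The 1 that was lower, LGALS1, encodes galectin-1 and was at 492 to 524 FPKM against 345 to 359. In bulk libraries such as these, fewer cells of a type and less RNA per cell cannot be told apart.

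Of 24 collagen and matrix genes, 12 were higher in the second set and 4 lower, with a median of 0.36, of 0.60 after subtraction of exon class medians and of 0.24 with all listed transcripts. COL6A1 and COL6A2, chains of type VI collagen, were at 2.31 to 2.83 and 1.04 to 1.21 FPKM in the first set and at 9.20 to 11.6 and 9.94 to 11.9 in the second. LOX, lysyl oxidase, which crosslinks collagen, was at 2.62 to 3.85 FPKM against 13.4 to 14.9, and LAMB1, a laminin chain, at 84.8 to 105 against 153 to 169. These 4 genes showed no overlap between sets, which also held for 58.2% of all genes tested. Among the EMT transcription factors 5 of 8 tested were higher and none lower, and without control 5 the count was 3 of 6. TWIST1 was at 0.282 to 0.691 FPKM in the first set and 22.4 to 24.8 in the second (difference 4.11), and FOXC2 was listed at 0 in controls 1 to 3 and at 4.38 to 5.36 in controls 4 to 6. TWIST1 has 2 exons and FOXC2 has 1, and HMGA2, higher by 1.95, had 5.4 and 9.0% of its FPKM in shared transcripts. None of the 8 genes met both an 80% share of FPKM in shared transcripts and a minimum of 3 exons. ZEB1, a repressor of E-cadherin, was low in both sets, at 0.379 to 0.758 FPKM against 0.933 to 2.79, and was not called (adjusted p = 0.065), though it was without control 4 (difference 0.98, adjusted p = 0.034).

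Among genes of TGFbeta signalling, the list of direct targets and feedback genes had more genes higher than lower in the second set. Few ligands, receptors and SMADs were called. TGFbeta carries its signal through receptor kinases and SMAD proteins, which turn on matrix genes and feedback inhibitors. Of 21 ligands, receptors and SMADs, 3 were higher and 2 lower (median -0.01), and of 25 direct targets and feedback genes 11 were higher and 4 lower (median 0.39). The target list also holds genes that TGFbeta can lower, such as MYC and ID1, so its counts do not measure signalling output. The median of the targets was 0.21 after subtraction of exon class medians, 0.11 with all listed transcripts (11 higher, 7 lower) and 0.06 with transcripts matched without their version suffix. TGFBI, a matrix protein named for its induction by TGFbeta, was at 94.1 to 125 FPKM against 174 to 223 (difference 0.93). INHBA, the activin A subunit, was at 0.555 to 0.972 FPKM against 4.08 to 6.71, and FST, follistatin, which binds activin, at 2.62 to 5.39 against 13.6 to 15.5. CTGF, a matricellular protein that both TGFbeta and YAP induce, was at 5.04, 5.60 and 8.94 FPKM in the first set and 44.4, 48.3 and 40.8 in the second (difference 2.63). ITGB6, a subunit of an integrin that activates latent TGFbeta, was lower at 4.87 to 5.52 against 1.71 to 2.75, and so was the ubiquitin ligase SMURF2, at 10.5 to 11.4 against 1.62 to 2.12. SMAD7, the inhibitory SMAD, was at 1.04 to 1.37 FPKM against 0.971 to 1.16 and was not called (adjusted p = 0.48). Of 19 genes tested in the list of YAP and TAZ targets 9 were higher and 2 lower (median 0.45), with 4 lower when control 4 was left out. That list also holds YAP1, WWTR1, which encodes TAZ, and their partner TEAD1. It shares CTGF with the TGFbeta targets and NT5E with the mesenchymal markers. Of 27 contractile and actin genes 4 were higher and 15 lower (median -0.59).

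The TGFbeta1 libraries of each set are given for 3 of these genes as values only, since they share the tables of the controls. The 3 genes are a selection from those named and do not describe the others. ITGB6 was at 77.2, 71.5 and 72.6 FPKM in TGFbeta1 libraries 1 to 3 and at 2.71, 1.57 and 2.90 in libraries 4 to 6. FN1 was at 138, 202 and 216 FPKM in the first set and 186, 194 and 283 in the second. For ITGB6, the second-set TGFbeta1 libraries lay near the second-set controls, and the first-set ones far above theirs. VIM was at 534, 532 and 718 FPKM in TGFbeta1 libraries 1 to 3 and at 39.7, 26.9 and 63.0 in libraries 4 to 6, below every control of both sets in the latter. These values cover shared transcripts only. The share of each gene in shared transcripts was computed for the controls alone, so sums over all listed transcripts may differ here.

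The group with the highest share of genes higher in the second-set controls, among groups with at least 8 genes tested, was that of inflammatory cytokines and chemokines. Its tested genes also include some that are neither, namely BIRC3, ICAM1, NFKB2, NFKBIA, TNFAIP2 and TNFAIP3. Chemokines of the CXCL group draw neutrophils, and many are transcribed through NF-kappaB, a family of factors that binds short G-rich and C-rich elements. The upstream sequences of the 2 chemokines with the largest differences, CXCL1 and CXCL8, are shown because they hold such elements. They are the 250 bases before each gene's annotated start in RefSeq, on GRCh38.p14, at chr4:73869143-73869392 and chr4:73740319-73740568, both on the plus strand. Capitals mark matches to GGNNTTTCC on either strand.
CXCL1: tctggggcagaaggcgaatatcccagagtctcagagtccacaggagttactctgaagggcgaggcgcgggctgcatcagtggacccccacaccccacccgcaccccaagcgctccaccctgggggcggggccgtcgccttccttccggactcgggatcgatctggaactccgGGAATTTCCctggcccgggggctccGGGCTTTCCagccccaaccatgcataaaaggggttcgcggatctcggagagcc
CXCL8: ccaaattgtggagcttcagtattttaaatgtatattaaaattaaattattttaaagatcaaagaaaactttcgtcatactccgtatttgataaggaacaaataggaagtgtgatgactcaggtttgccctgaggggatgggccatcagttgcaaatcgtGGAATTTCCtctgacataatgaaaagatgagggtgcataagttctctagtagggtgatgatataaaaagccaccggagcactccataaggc

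The CXCL1 sequence holds 2 matches, at -78 to -70 and -53 to -45 counted from the start, and the CXCL8 sequence holds 1, at -91 to -83. In windows from 250 bases before to 50 after the start, GGNNTTTCC was found for 11 of the 15 tested inflammatory genes with a RefSeq entry, or 73.3%. It was found in 6.9% of the 7553 windows matched to tested genes and in 6.3% of all 27305 windows. The AP-1 motif TGANTCA was in 3 of the same 15 windows. A match describes the letters of the window and is not a measured site. The list includes genes known as NF-kappaB targets, so a high share follows from its choice. Its relation to the difference between the sets was not tested.

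CXCL1 was at 4.35, 3.55 and 5.79 FPKM in the first set and at 162, 165 and 166 in the second. The means differed 36.0-fold with no overlap (difference 4.91, SE 0.15, adjusted p = 2.9e-05). CXCL8, interleukin-8, was at 1.39, 1.44 and 2.70 FPKM and then 43.9, 45.9 and 36.4 (difference 3.95, SE 0.20). CSF1, the macrophage growth factor, was at 3.59 to 4.55 FPKM against 22.9 to 25.6 (difference 2.30). IL1A, an alarmin kept in epithelial cells, was already at 64.1 to 78.1 FPKM in the first set and at 99.0 to 112 in the second (difference 0.55). IL18 was at 52.4 to 77.2 FPKM against 39.4 to 51.2 and was not called (adjusted p = 0.074). Over the list 14 of 18 genes tested were higher and 1 lower, with a median of 1.46 and of 1.44 after subtraction of exon class medians. The counts were the same after leaving out any 1 control library. The genes in the rest of this paragraph were picked after their values were seen. CXCL2 was at 1.31 to 3.89 FPKM against 19.0 to 20.4 and CCL20 at 0.483 to 1.24 against 7.62 to 10.6. IL6 was listed at 0 in all 3 first-set controls and at 2.33 to 4.51 FPKM in the second. The NF-kappaB feedback genes TNFAIP3 and NFKBIA were higher by 1.75 and 1.17. The 1 gene that was lower was IL1RN, the interleukin-1 receptor antagonist, at 14.0, 14.3 and 14.8 FPKM against 2.55 to 3.34.

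Defence and complement genes were higher in part. The acute-phase genes SAA1 and SAA2 were at 106 to 139 and 17.0 to 19.5 FPKM in the first set and at 577 to 666 and 121 to 139 in the second. C3, the central complement component, was at 63.1 to 68.5 FPKM against 132 to 141 (difference 1.05), and C1S, a protease of the classical pathway, was under 0.206 FPKM against 4.34 to 5.57. Over 15 secreted defence genes 6 were higher and 5 lower (median 0.60), with PI3 and MUC1, given above, among those lower. With all listed transcripts 6 of 18 were higher and 7 lower (median -0.18). Matched without the version suffix, 6 of 17 were higher and 6 lower (median -0.03). Over 17 MHC class I and complement genes 8 were higher and 3 lower (median 0.67), and CD46, a complement regulator at the cell surface, was lower (difference -1.60). HLA-B, an MHC class I heavy chain, was at 4.97 to 6.01 FPKM against 25.8 to 29.9, and HLA-E at 45.2 to 49.1 against 72.2 to 79.2. The HLA genes share sequence and their reads may be split between loci, so their levels are uncertain. Of 19 interferon-stimulated genes 8 were higher and 3 lower (median 0.56). Among the 15 with at least 3 exons, 4 were higher and 3 lower (median 0.26). IFIT1 was low in both sets, at 0.572 to 0.875 FPKM against 2.21 to 2.46. SERPINA1, the inhibitor of neutrophil elastase, and CTSB, cathepsin B, were higher by 2.15 and 2.04, and the membrane protease ST14, matriptase, was lower by a difference of -1.45.

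Genes of EGF receptor signalling were also higher in part. EREG, epiregulin, was at 0.577 to 0.739 FPKM in the first set and at 18.7 to 23.2 in the second (difference 3.77, adjusted p = 2.9e-05). AREG, amphiregulin, was abundant in both, at 98.3 to 149 FPKM against 169 to 196 (difference 0.57, adjusted p = 0.031), and its call was lost when control 3, 4, 5 or 6 was left out (adjusted p of 0.058 to 0.094). ERBB3, a partner receptor of the family, was at 3.88 to 4.16 FPKM against 1.10 to 1.19. Of 9 EGF family genes 5 were higher and 2 lower. The count of higher genes fell to 2 when control 3, 4 or 5 was left out and to 3 without control 1, and 2 of 9 is near the share over all genes. Among 16 MAP kinase feedback genes, many of them induced by ERK signalling and several able to damp MAP kinases, 7 were higher and none lower (median 0.56). SPRY4, a Sprouty inhibitor, was at 0.117 to 0.713 FPKM against 4.07 to 7.15, and DUSP10, a MAP kinase phosphatase, at 4.02 to 4.35 against 7.52 to 8.11. PHLDA1, an early growth factor target, was at 26.7 to 28.9 FPKM against 47.4 to 63.2. JUNB, an AP-1 subunit with 1 exon, was listed at 0 in all 3 first-set controls and at 80.1 to 84.3 FPKM in the second. It was also listed at 0 in TGFbeta1 libraries 2 and 3, and whether a listed 0 at such single-exon genes is a low level or a step of the processing cannot be told apart.

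**Figure D3:**
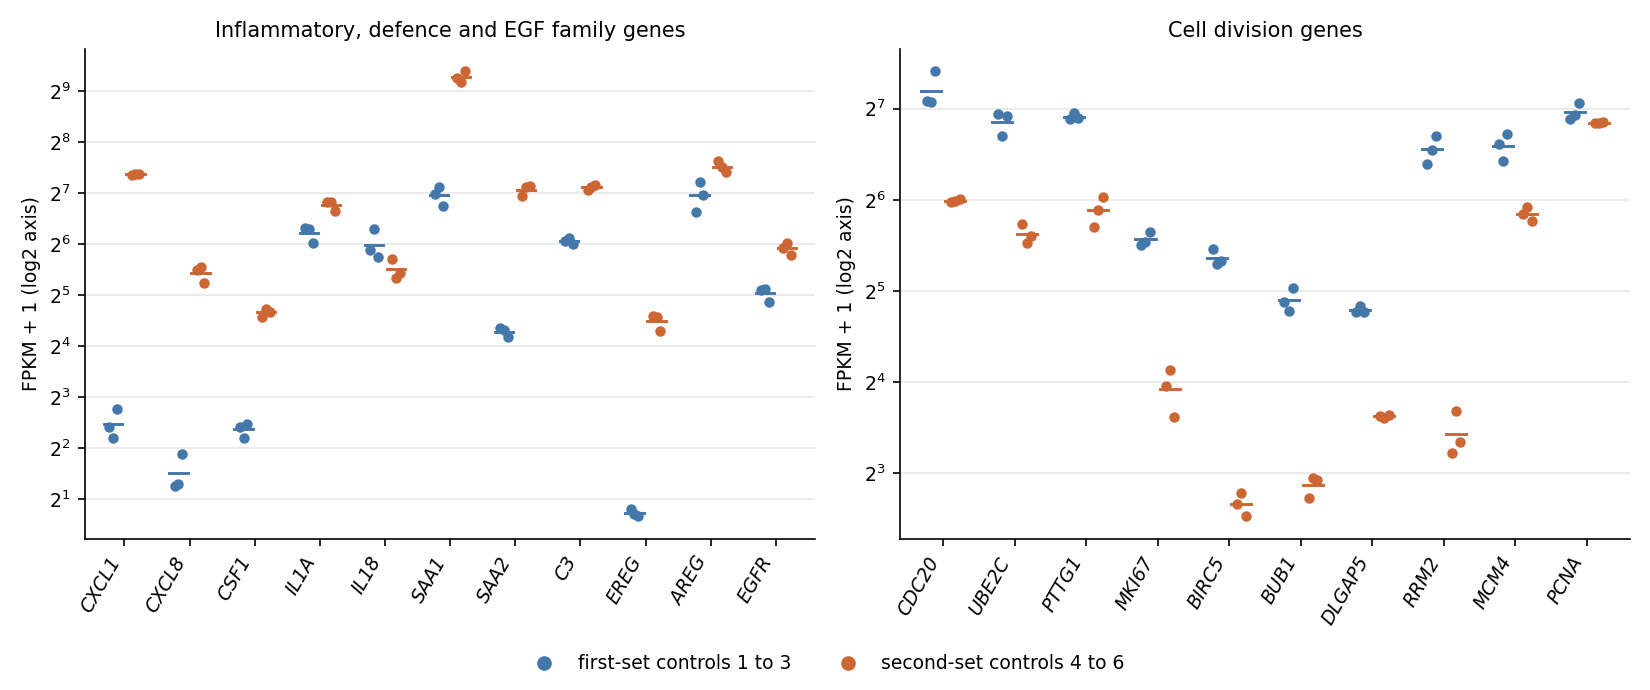
FPKM + 1 on a log2 axis in each control library for inflammatory, defence and EGF family genes (left) and cell division genes (right), with a bar at the group mean on that scale. CXCL1, CXCL8 and EREG lie above the first set in every second-set library, and MKI67, BIRC5 and RRM2 lie below it.

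Genes of mitosis were almost all lower in the second-set controls. These genes are transcribed late in the cell cycle, and many carry a cell cycle homology region (CHR) bound by the DREAM and MMB complexes, often beside CCAAT boxes. The sequences of PLK1 and CDC20 are shown as examples with the CHR letters upstream of the start. They are again the 250 bases before the RefSeq start on GRCh38.p14, at chr16:23678639-23678888 and chr1:43358731-43358980, both on the plus strand, and capitals mark TTTGAA or TTCGAA on either strand.
PLK1: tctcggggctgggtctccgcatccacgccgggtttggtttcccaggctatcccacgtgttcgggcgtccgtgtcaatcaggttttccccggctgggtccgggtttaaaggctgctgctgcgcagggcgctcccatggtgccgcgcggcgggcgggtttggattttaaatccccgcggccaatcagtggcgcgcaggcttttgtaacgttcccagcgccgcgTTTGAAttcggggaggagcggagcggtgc
CDC20: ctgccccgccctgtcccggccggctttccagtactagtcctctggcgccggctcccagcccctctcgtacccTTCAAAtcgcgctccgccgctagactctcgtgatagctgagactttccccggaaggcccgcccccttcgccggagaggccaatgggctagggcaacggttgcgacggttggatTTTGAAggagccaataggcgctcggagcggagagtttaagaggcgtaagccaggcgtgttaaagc

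The PLK1 match lies at -29 to -24 and the CDC20 matches at -178 to -173 and -65 to -60. A CHR match was found in the windows of 21 of 26 mitosis genes with a RefSeq entry, or 80.8%, against 10.8% of windows of tested genes. CCAAT on either strand was in 23 of the 26, or 88.5%, against 37.3%. Of 32 DNA replication windows, 2 held a CHR match. The lists were not chosen by sequence, but many mitosis genes are known to carry a CHR, so a high share follows from the list. The matches are a description of these windows.

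MKI67, the proliferation marker Ki-67, was at 44.4, 45.5 and 49.1 FPKM in the first set and 14.6, 16.6 and 11.2 in the second. The groups did not overlap (difference -1.66, SE 0.15, adjusted p = 0.00055). BIRC5, survivin of the chromosomal passenger complex, was at 38.3 to 42.9 FPKM against 4.76 to 5.87, and BUB1, a checkpoint kinase, at 26.4 to 31.8 against 5.62 to 6.69. CDC20, the activator of the anaphase-promoting complex, was at 134, 134 and 169 FPKM and then 62.0, 62.5 and 63.2 (difference -1.20). PLK1, the mitotic kinase, picked for its upstream sequence, was at 59.0 to 75.8 FPKM against 11.9 to 15.8. Over 32 mitosis genes 30 were lower and 1 higher, with a median of -1.03 and of -0.95 after subtraction of exon class medians. The 1 that was higher was the checkpoint gene BUB3, at 58.9 to 63.6 FPKM against 68.4 to 74.7 (difference 0.24, adjusted p = 0.041), a call lost when control 1, 3, 4, 5 or 6 was left out (adjusted p of 0.052 to 0.11). With any 1 control library left out, 30 genes were lower in each case.

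DNA replication genes were lower less uniformly, at 24 of 37 tested, with 1 higher (median -0.72). RRM2, the small subunit of ribonucleotide reductase, was at 83.3 to 103 FPKM against 8.36 to 11.9 (difference -3.13). MCM4, of the replicative helicase, was at 85.2 to 104 FPKM against 53.3 to 59.7. PCNA, the sliding clamp, was at 117 to 133 FPKM against 114 to 115, a difference of -0.11 (SE 0.07) that was not called (adjusted p = 0.24). Cell cycle inhibitors and G1 cyclins did not move as a group, with 1 of 16 tested higher and 5 lower (median -0.07). With 1 control left out, 0 to 2 were higher and 5 to 6 lower. The G1 cyclin CCND1 was at 67.6 to 78.5 FPKM against 45.1 to 54.8 (difference -0.47), and CDK2 at 25.0 to 28.9 against 5.85 to 8.73. CDKN1A, the inhibitor p21, was at 59.4, 206 and 49.6 FPKM in the first set and at 161, 154 and 156 in the second. Control 2 alone was above the second set at this gene, and the difference of 0.88 (SE 0.53) was not called (adjusted p = 0.23). Without control 2 it was 1.51, with an adjusted p of 0.0011. CDKN1C, the inhibitor p57, was lower, at 4.97 to 7.47 FPKM against 0.460 to 1.08.

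**Figure D4:**
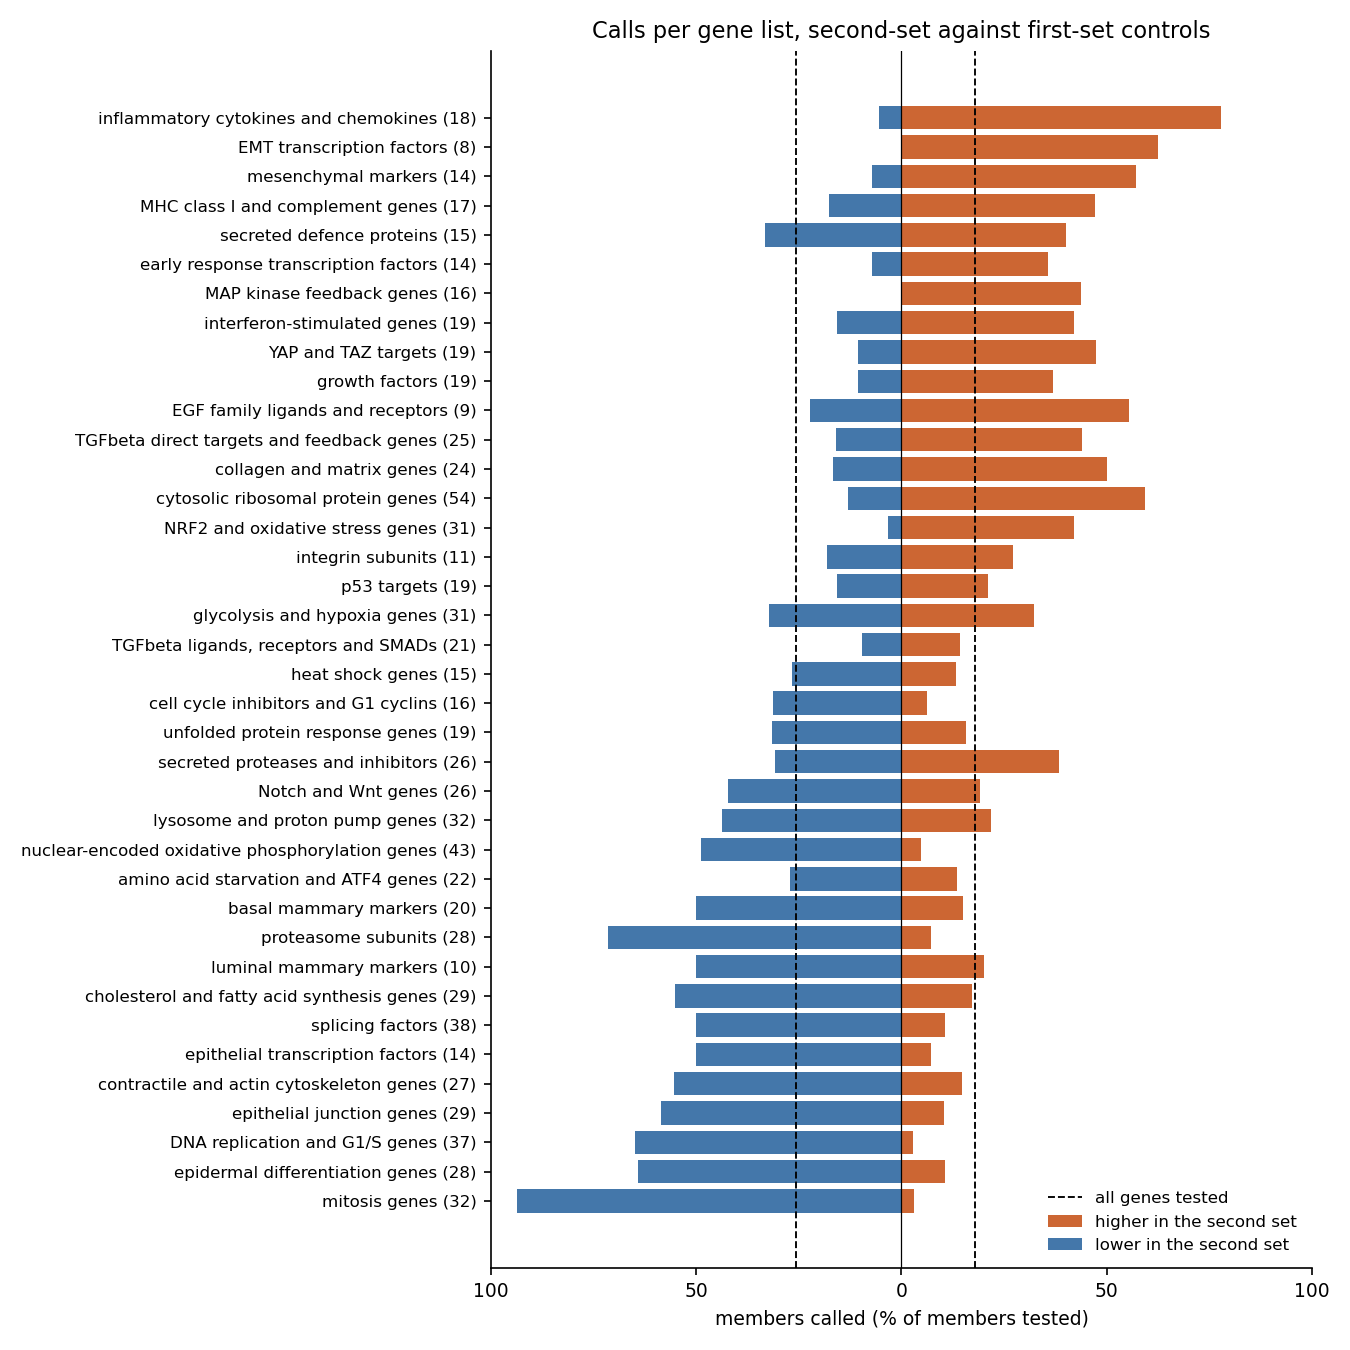
Share of the tested members called higher or lower in the second-set controls, for each gene group with at least 8 members tested. Dashed lines mark 18.0% and 25.8%, the shares over all genes tested. Inflammatory genes lie farthest above the line for higher calls and mitosis genes farthest beyond the line for lower calls.

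Stress and iron genes were partly higher. FTL and FTH1, the ferritin chains, were at 159 to 190 and 533 to 596 FPKM in the first set and at 1405 to 1421 and 2237 to 2675 in the second. SOD2, the mitochondrial superoxide dismutase and also an NF-kappaB target, was at 24.6 to 33.4 FPKM against 213 to 242 (difference 2.86). NQO1, a typical NRF2 target, was at 32.9 to 38.4 FPKM against 55.4 to 75.0. Of 31 NRF2 and oxidative stress genes 13 were higher and 1 lower, with a median of 0.25 and of 0.41 after subtraction of exon class medians. The 1 lower became 3 without control 3, 2 without control 5 or 6 and none without control 4. The small heat shock gene HSPB1 was lower, at 1135 to 1432 FPKM against 559 to 626. Groups of the unfolded protein response (19 tested, 3 higher, 6 lower) and of heat shock (15 tested, 2 higher, 4 lower) were close to the shares over all genes, and no heat shock gene was higher without control 4, 5 or 6.

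Metabolic genes went in both directions. Of 29 cholesterol and fatty acid synthesis genes 16 were lower and 5 higher (median -0.54), with 3 higher without control 4 or 5. FDPS, farnesyl diphosphate synthase, was at 190 to 228 FPKM against 66.0 to 75.4, while the desaturase FADS1 and the sterol carrier STARD4 were higher by 1.47 and 1.52. Of 31 glycolysis and hypoxia genes 10 were higher and 10 lower, and the lower count was 6 when control 4 or 6 was left out. GAPDH was at 1360, 884 and 1380 FPKM against 548, 487 and 518 (difference -1.19), ALDOA at 633 to 753 against 186 to 194, and PGAM1, which was higher, at 52.6 to 53.2 against 166 to 169. SLC2A1, the glucose transporter GLUT1, differed by -0.44. Nuclear-encoded oxidative phosphorylation genes were lower at 21 of 43 and higher at 2 (median -0.34).

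The protein machinery groups also differed in direction. Of 54 cytosolic ribosomal protein genes 32 were higher and 7 lower (median 0.35). RPL12 was at 1287 to 1387 FPKM against 2591 to 2721, and RPS6 at 1561 to 1585 against 2542 to 2934, whereas RPLP0 and RPL7A were lower by differences of -1.09 and -1.81. Under quantile normalisation 23 of the ribosomal genes were higher and 10 lower, and the difference of RPS6 was 0.05 (adjusted p = 0.51). Many ribosomal genes have processed copies elsewhere in the genome, which makes their reads uncertain. Proteasome subunits were lower at 20 of 28 and higher at 2 (median -0.50), and splicing factors lower at 19 of 38 and higher at 4 (median -0.55).

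The largest differences in either direction held several genes of uncertain level. MT-CO1 and MT-ND2, which the mitochondrial genome encodes in 1 exon each, were under 0.262 FPKM in every first-set control and at 3331 to 3626 and 1932 to 2110 in the second. MT-CYB, from the same genome, was at 2409 to 2831 FPKM in the first set and 1937 to 2037 in the second. Of the 4 mitochondrially encoded genes tested, 2 were higher and 2 lower (median 5.32). With all listed transcripts the counts were the same and the median was 5.35. Why MT-CO1 and MT-ND2 were so low in the first set was not tested. COX8A, a subunit of cytochrome oxidase with 2 exons, was at 1.06 to 1.65 FPKM against 121 to 131. ACTB, beta-actin, was at 940, 875 and 1148 FPKM in the first set and 62.7, 59.3 and 91.0 in the second (difference -3.80, SE 0.19). ACTG1, the other cytoplasmic actin, was at 561 to 975 FPKM against 383 to 439 (difference -0.85, adjusted p = 0.018), and its call was lost without control 4 or control 5 (adjusted p of 0.06 and 0.054). The actins have near-identical coding sequences and processed copies, so both values are uncertain.

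Summing every listed transcript of a gene, in place of the shared ones, called 45.6% of 10521 genes, left 3724 of the 4161 calls in the same direction and turned 64. Matching transcripts without their version suffix called 44.0% of 10343 genes, left 3952 of the calls and turned 33. YWHAZ, a 14-3-3 protein, was at 4.12 to 6.62 FPKM against 306 to 333 in shared transcripts, which held 1.3% and 57.0% of its FPKM in the 2 sets, and its difference of 5.75 became 0.52. RPL10 went from 5.60 to 1.88 and CORO1C, a coronin of the actin cortex, from -4.05 to -0.46. For the glycolytic enzymes GPI and PKM, picked after their values were seen, the differences of 3.77 and 2.70 became -0.99 and -2.47. CXCL1, FN1, KRT13, KRT5 and MKI67 differed by 4.94, 3.79, -3.80, -1.59 and -1.63 under that sum.

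**Figure D5:**
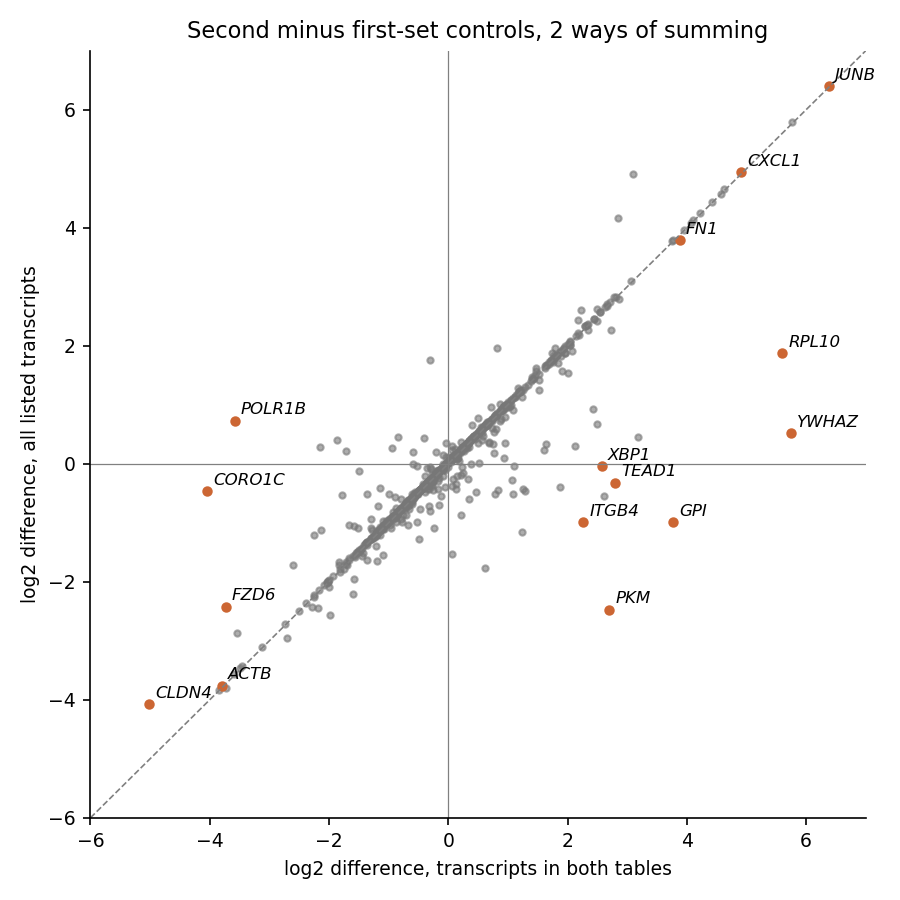
Log2 difference between the control groups from shared transcripts (horizontal) against that from all listed transcripts (vertical), for the genes of the lists and the genes with the largest differences, with MT-CO1 and MT-ND2 left out. Most points follow the diagonal, and YWHAZ, GPI, PKM and ITGB4 lie off it.

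Few markers of other cell types were measured, and most were low. The neural tubulin TUBB3, which some cultured epithelial lines also express, was the exception, at 99.9, 96.0 and 126 FPKM in the first set and 13.8, 43.4 and 9.35 in the second (difference -2.51, SE 0.54, adjusted p = 0.013). MBP, of myelin, was at 8.41 to 8.78 FPKM against 7.93 to 8.83 and was not called (adjusted p = 0.67), and these were the 2 adipocyte and neural markers tested. Among leukocyte genes CD14 was at 2.73 to 3.32 FPKM in the first set and 3.42 to 4.65 in the second, and CD68, which epithelial cells also express, at 22.8 to 24.4 against 12.4 to 14.8. Of the endothelial and erythroid markers none passed the filter, and KDR reached at most 0.855 FPKM. The fibroblast markers were mixed: DCN, decorin, was at 0.495 to 0.718 FPKM against 6.86 to 14.9 and PDPN, podoplanin, at 0.660 to 0.989 against 3.26 to 8.90, while FAP was at 5.62 to 7.01 against 6.97 to 7.60 and COL1A1 at 0.981 to 1.12 against 0.409 to 0.443. The part of these markers in the differences of other genes was not tested.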

How the data were processed

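RNA was extracted with Trizol and libraries were made by an Illumina protocol, per the labels. The authors deposited 2 tables of FPKM per transcript, one for each set, and the unit of the first table was inferred from its values. The hg19 build and the tools HISAT2 2.0.4, StringTie 1.2.3, cutadapt and FastQC are listed by the submitters' processing notes without a role or an order. The second table also holds the authors' fold change as a ratio and on a log2 scale, group means as log2 FPKM, and a p-value and q-value for their own treatment comparison, per the file headers. These deposited values were not used. The tables were processed separately, list transcripts with different version suffixes and have different lowest mean values, so levels across them carry those differences.

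FPKM were summed per gene over the identifiers found in both tables, rescaled to an equal sum and turned to log2(FPKM + 1). Genes with a mean of at least 1 FPKM over the 6 controls entered a limma fit (version 3.58.1 under R 4.3.3, with trend, two-sided, Benjamini-Hochberg over all genes tested, called at an adjusted p under 0.05). An exact permutation test of 3 against 3 libraries cannot go below 0.1. The test was checked on simulated data of 9482 genes, of which few were changed. It recovered 59 of 100 genes given a log2 change of 1 and 91 of 100 given a change of 2. It also called 8 unchanged genes. The simulation called 158 genes in all, against 4161 in the data, so its cut-off on the unadjusted p was stricter. The rates of recovery therefore do not carry over to the comparison of the sets. A gene that was not called may still differ. In total 22 alternatives were tried, 4 of them chosen after seeing the data. The members and the 46 gene lists were chosen with earlier results of these data known. Named genes were the 10 with the largest differences in each direction, the 3 of each list with the smallest p or the highest mean, and 31 genes chosen for identity, signalling and growth, with others marked where they are printed. Exon counts came from the GENCODE 29 annotation. Promoter windows came from the RefSeq table on GRCh38.p14, matched by symbol. Some members of the lists are not reported here.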

Additional observations from a re-analysis of the deposited data

How the results depend on the processing

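The counts of higher, lower and all called genes stayed within 1.5 times of 1710, 2451 and 4161 under each alternative but 2. Asking for a log2 difference of at least 1 left 785 higher, 877 lower and 1662 in all, and a mean of at least 5 FPKM left 1067 higher of 6545 tested. Leaving out 1 control library at a time gave 1318 to 1752 higher, 2048 to 2320 lower and 3366 to 4072 in all. Small counts moved with it: 1 to 2 mesenchymal markers were lower, 1 to 2 DNA replication genes higher, 0 to 2 mitosis genes higher and 1 to 3 proteasome subunits higher. No rescaling gave 2001 higher and 2079 lower, and median of ratios scaling 1962 and 2168.

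Of the 125 genes tested and named, 82 kept their direction and their side of the threshold under each of the 22 alternatives that could test them. Direction changed for 4 genes that were called. With all listed transcripts GPI had a difference of -0.99, PKM -2.47, ITGB4 -0.99 and XBP1 -0.04. With transcripts matched by accession without version, GPI had -1.0, PKM -2.49 and XBP1 -0.04. The shared transcripts of these genes held 11.9% or less of their first-set FPKM.

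No paired analysis was possible because the controls carry the numbers 1 to 3 in one set and 4 to 6 in the other, so the groups share none. Depth is unknown, and with 3 libraries a set the precision rests on the spread across genes that limma pools.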

Other observations

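Some genes could be compared only when transcript identifiers were matched without their version suffix, which gave 27453 transcripts in place of 23335 and 811 further genes. They were picked after their values were seen. FASN, fatty acid synthase, was at 188 to 242 FPKM in controls 1 to 3 and 20.1 to 22.8 in controls 4 to 6 (limma difference -3.19, SE 0.12, adjusted p = 4.8e-05). DSP, the desmosomal linker desmoplakin, was at 146 to 159 FPKM against 71.6 to 76.0, and TRIM29, a basal marker, at 74.3 to 96.6 against 40.5 to 43.4. LCN2, a secreted siderophore-binding protein, differed by -0.49 and KLF4, an epithelial transcription factor, by -1.90. SNAI2, a repressor found in basal mammary cells, was at 21.8, 52.0 and 48.3 FPKM against 65.7, 67.7 and 60.9, and was not called (adjusted p = 0.12). PSCA, a surface antigen, was at 109.5 FPKM in control 1, at 574 and 655 in controls 2 and 3 and at 111 to 119 in controls 4 to 6.

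Other genes were listed in a single table. The second table alone held 178 genes with 6.07% of its control FPKM, led by the mitochondrial genes MT-CO2 at a mean of 4245 and MT-CO3 at 4009 deposited FPKM. The first table alone held 2084 genes with 0.23% of its control FPKM, of which 4 had a mean of at least 10. POLR2A, the largest subunit of RNA polymerase II, was the highest of these, at 33.2, 32.7 and 39.7 deposited FPKM. Absence from a table is not a measured zero.

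Within the first set, control 1 stood apart at several abundant genes, which were picked after their values were seen. SFN, the 14-3-3 protein of epithelia, was at 17.2 FPKM in control 1 and at 434 and 468 in controls 2 and 3, and the second-set controls were at 407 to 412. KRT17, a basal keratin, was at 680, 291 and 329 FPKM in the first set and at 92.7 to 109 in the second.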
